A study of Homo sapiens with 8 samples.

Results

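The aminoacyl-tRNA synthetases are the enzymes that join each amino acid to the transfer RNAs that carry it to the ribosome. They were read here in AGS, an established cell line from a human gastric adenocarcinoma, after growth with podofilox, a plant toxin that keeps tubulin from forming microtubules. The members were 35 listed genes, all of which were found by symbol among the 18132 genes of the array: 19 encode cytosolic enzymes (names ending in 1, FARSA and FARSB) and 16 encode mitochondrial ones (names ending in 2). The list was given by name and not by any measured value, although it was drawn up with other results of these data known. A difference is always podofilox minus control on the log2 scale, SE is limma's moderated standard error, and a gene rose or fell where its two-sided limma p, adjusted by Benjamini and Hochberg over all 18132 genes, was under 0.05.

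In each compartment these enzymes load amino acids at the expense of ATP, and a tRNA left without its amino acid stalls the ribosome. In the cytosol, uncharged tRNA activates the kinase GCN2, which phosphorylates the initiation factor eIF2 and so favours translation of the transcription factor ATF4, whose known targets include asparagine synthetase and a number of cytosolic synthetase genes. The mitochondrial enzymes are encoded in the nucleus and imported, and they serve the translation of the few respiratory chain proteins that mitochondrial DNA encodes. GARS1 and KARS1 each supply both compartments from a single gene.

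The study held 4 arrays of control AGS cells and 4 arrays of AGS cells treated with podofilox at 3.4 nM for 72 hours. All were grown in the same medium with fetal bovine serum, penicillin and streptomycin, and biotin-labelled cRNA of total RNA was hybridised to arrays of 1 colour. The labels do not say whether control cells received the drug's solvent or whether replicates were separate cultures, so p-values reflect spread among arrays that may be only technical. This is 1 cell line at 1 dose and 1 time, and in bulk RNA fewer cells of a kind and less RNA per cell cannot be told apart.

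Array medians lay between 6.39 and 6.45, and arrays of the same group correlated across genes at 0.997 to 0.999. Of 6 epithelial markers (EPCAM, KRT8, KRT18, KRT19, CDH1 and CLDN4) the control means ran from 7.41 (CDH1) to 13.28, whereas fibroblast markers lay between 3.15 and 6.02 endothelial ones between 4.72 and 6.93, and immune ones between 3.62 and 13.60, the highest being LYZ, lysozyme, which stomach glands also make. Among these lists 1 of 6 epithelial markers (CLDN4) and 1 of 5 immune markers (CD68) rose by limma's test. Of 5 endothelial markers 1 (CDH5) fell, and of 6 fibroblast markers 0 passed. Over all genes 8.55% rose and 12.5% fell. At an unadjusted p under 0.05, 2 epithelial and 3 immune markers were higher and 0 of either list lower. At that level 1 endothelial marker was lower and 0 higher, and 1 fibroblast marker was higher and 1 lower. The mean of the 3 control probe sets for 18S ribosomal RNA was 12.86, 12.92, 12.59 and 12.59 in the control arrays, in order of replicate number, and 12.01, 12.06, 12.42 and 12.41 in the podofilox arrays. The 18S signal was thus lower on every podofilox array, and arrays 1 and 2 of each group resembled each other, as did arrays 3 and 4. The part of this in the results was not tested.

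Of the 16 mitochondrial genes 8 fell (CARS2, FARS2, LARS2, MARS2, PARS2, SARS2, VARS2 and YARS2) and 0 rose by limma, with 10 lower and 0 higher at an unadjusted p under 0.05. The other 8 mitochondrial genes did not pass. Of the 19 cytosolic genes 4 rose (CARS1, GARS1, SARS1 and YARS1) and 2 fell (FARSB and VARS1), with 5 higher and 5 lower at an unadjusted p under 0.05. The cytosolic counts were even under some settings, with 5 risen and 5 fallen under limma's intensity trend and 4 and 4 with averaged probe sets. They stayed at 4 and 2 after a second quantile normalization, with arrays centred on their medians and with a term for array pairs. With array weights they were 5 and 4, and with the replicate block 2 and 1. Without control replicate 1, control replicate 4 or podofilox replicate 2 the cytosolic genes that rose were 2 in each case. Every change was small: the largest rise was 1.21-fold (CARS1) and the largest fall 1.32-fold (MARS2).

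Over all genes 21.0% were called, 8.55% upward and 12.5% downward. Of the cytosolic members 21.1% rose and 10.5% fell. Podofilox and control arrays did not overlap in 26.2% of all genes, with podofilox above in 10.6% and below in 15.6%, and among the members podofilox was above in 4 and below in 16. All 35 members had a mean signal above the median gene, and among the 9066 such genes 12.4% rose and 21.5% fell, while the arrays lay apart with podofilox above in 15.1% and below in 27.4%. The median difference was -0.15 for the mitochondrial members and -0.01 for the cytosolic ones, beside 0.01 over all genes and -0.03 over the genes above the median signal. The cytosolic median turned to 0.01 when arrays were centred on their medians, so it carried no direction. The difference between the compartments was not tested.

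**Figure D1:**
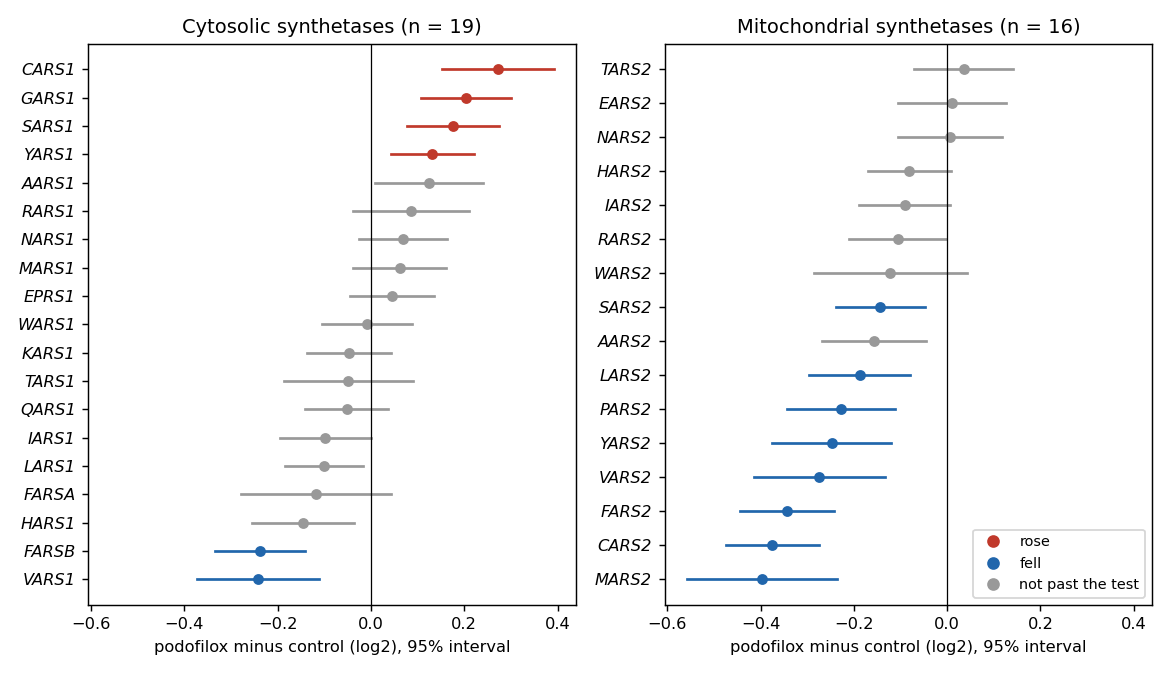
Difference between podofilox and control (log2, points) with limma's 95% interval (lines) for the 19 cytosolic genes on the left and the 16 mitochondrial genes on the right; red marks genes that rose, blue genes that fell and grey those not past the test. The cytosolic genes spread to both sides of 0, from -0.24 (VARS1) to 0.27 (CARS1), whereas 13 of the 16 mitochondrial genes lie below 0.

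Promoter sequences are shown here because several cytosolic synthetase genes are known targets of ATF4. The element bound by ATF4 with C/EBP proteins has the core TGATGNAAN, and it was searched on both strands of the RefSeq promoter windows (assembly GRCh38.p14), which run from 250 bases before to 50 bases after a gene's start. Such a window was at hand for 30 of the 35 genes, all except LARS1, VARS1, YARS1, AARS2 and VARS2. The letters occurred in 7 of 16 cytosolic genes (43.8%), in 1 of 14 mitochondrial genes (7.14%), and in 3.61% of the 14425 measured genes that had a window. A match is a description of the letters and not evidence of binding. The 8 matches are given on the gene's own strand with the 31 bases before them, and capitals mark the 9 letters of the element, which read in reverse complement except in NARS1 and YARS2.
CARS1: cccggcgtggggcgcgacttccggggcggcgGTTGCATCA
GARS1: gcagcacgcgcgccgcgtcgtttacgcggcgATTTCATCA
AARS1: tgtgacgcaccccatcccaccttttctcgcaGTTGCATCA
MARS1: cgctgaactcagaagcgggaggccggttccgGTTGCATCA
IARS1: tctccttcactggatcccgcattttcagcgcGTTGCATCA
TARS1: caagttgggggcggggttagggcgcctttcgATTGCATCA
NARS1: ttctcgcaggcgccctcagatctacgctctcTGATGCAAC
YARS2: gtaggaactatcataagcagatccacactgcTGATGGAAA

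The same 9 letters, GTTGCATCA, were found in CARS1, AARS1, MARS1 and IARS1. In CARS1 (chr11:3057418-3057457, minus strand) the element began 3 bases before 1 of 2 annotated starts. In MARS1 (chr12:57488032-57488071, plus strand) and IARS1 (chr9:92293703-92293742, minus strand) it began 5 and 14 bases before the annotated start. In GARS1 (chr7:30594813-30594852, plus strand) it began 34 bases before 1 of 2 annotated starts. In AARS1 (chr16:70289686-70289725, minus strand) and YARS2 (chr12:32756086-32756125, minus strand) it lay 188 and 197 bases before the start. In TARS1 (chr5:33440935-33440974, plus strand) and NARS1 (chr18:57621814-57621853, minus strand) it began just inside the transcribed part, in TARS1 as counted from 1 of 2 annotated starts. Among the 7 cytosolic genes with the letters the differences ran from -0.10 (IARS1) to 0.27 (CARS1) with a median of 0.07, and 2 rose (CARS1 and GARS1) and 0 fell by limma. Among the 9 cytosolic genes whose window lacked them the median was -0.05, and 1 rose (SARS1) and 1 fell (FARSB). Over all genes 8.55% rose and 12.5% fell, and the difference between genes with and without the letters was not tested. YARS2, the mitochondrial gene with the letters, fell.

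Among the cytosolic enzymes, CARS1, which loads cysteine, rose most. Its values, in order of replicate number as in all such series of values here, were 8.87, 9.03, 8.79 and 8.88 in control cells and 9.15, 9.15, 9.19 and 9.17 with podofilox. The groups did not overlap, and the treated arrays were closer together than the controls. The difference was 0.27 (SE 0.05, adjusted p = 0.00579, n = 4 per group), and the 2 other CARS1 probe sets also rose (0.22 and 0.23).

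GARS1, the glycine enzyme of both compartments, read 11.57, 11.67, 11.53 and 11.56 on the control arrays and 11.79, 11.80, 11.77 and 11.77 on the podofilox arrays. Each podofilox array exceeded each control array, control array 2 being the nearest. It rose by 0.20 (SE 0.04, adjusted p = 0.00823), with the same value on its other probe set (0.20).

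SARS1, the serine enzyme, read 10.46, 10.55, 10.50 and 10.48 in control cells and 10.71, 10.73, 10.62 and 10.63 with podofilox. The groups were apart, and podofilox arrays 1 and 2 were the highest. The rise of 0.18 (SE 0.04, adjusted p = 0.0183) passed the test without 5 of the 8 arrays in turn and missed it without control replicate 1, control replicate 4 or podofilox replicate 2 (adjusted p up to 0.0604). YARS1, the tyrosine enzyme, read 10.03, 9.99, 9.97 and 10.00 against 10.11, 10.19, 10.11 and 10.11, with podofilox array 2 standing above the others. Its rise of 0.13 (SE 0.04, adjusted p = 0.0431) was kept on leaving out podofilox replicate 3 and missed the test without any other array (adjusted p up to 0.119). SARS1 and YARS1 have a single probe set each, and that of YARS1 carries the suffix _s_at, given to sets that may match several transcripts.

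FARSB, the beta subunit of the phenylalanine enzyme, fell. It read 9.74, 9.74, 9.75 and 9.75 on the control arrays and 9.59, 9.50, 9.45 and 9.48 on the podofilox arrays, so the control arrays were almost equal and all podofilox arrays lay below them. The difference was -0.24 (SE 0.04, adjusted p = 0.00368), and 3 of the 4 other probe sets fell as well, by 0.18 to 0.36, while the last was dim (3.68 in control cells) and did not pass. The brightest set is an _s_at one. FARSA, its partner alpha subunit, differed by -0.12 (adjusted p = 0.292). FARSA read 8.51, 8.60, 8.23 and 8.44 against 8.36, 8.33, 8.31 and 8.30, so the groups overlapped through control array 3 alone. Without control replicate 3 its difference was -0.19 and passed the test (adjusted p = 0.0345).

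VARS1, the valine enzyme, which binds the elongation factor complex that takes up charged tRNA, read 8.98, 9.06, 9.06 and 9.05 in control cells and 8.92, 8.84, 8.65 and 8.78 with podofilox. The groups were apart, though podofilox array 1 came close to control array 1. It fell by 0.24 (SE 0.06, adjusted p = 0.016), and its 3 other probe sets lay between -0.25 and -0.19, 2 of them past the test over all probe sets. Its fall was smaller in arrays 1 and 2 (-0.14) than in arrays 3 and 4 (-0.34).

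The other 13 cytosolic genes did not pass the test, with differences between -0.15 and 0.12. HARS1, the histidine enzyme, came nearest: it read 9.48, 9.47, 9.50 and 9.48 against 9.39, 9.31, 9.42 and 9.24. Its groups did not overlap, yet its difference of -0.15 had an adjusted p of 0.0618, while both of its other probe sets fell (-0.18 and -0.20). It passed the test without podofilox replicate 3 (-0.17, adjusted p = 0.0331). LARS1 (-0.10, adjusted p = 0.0866) and IARS1 (-0.10, adjusted p = 0.149), the leucine and isoleucine enzymes, also had all podofilox arrays below all control arrays. The 3 other probe sets of IARS1 fell by 0.14 to 0.18, whereas those of LARS1 were at -0.08 and 0.10 and did not pass. AARS1, the alanine enzyme, was higher by 0.12 with overlapping groups (adjusted p = 0.124).

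Nearest to 0 were WARS1 (-0.01), the tryptophan enzyme, EPRS1 (0.05), which joins the glutamate and proline enzymes in 1 protein, KARS1 (-0.05), TARS1 (-0.05), QARS1 (-0.05), MARS1 (0.06) and NARS1 (0.07). For WARS1 the 95% interval ran from -0.11 to 0.09, and for EPRS1 from -0.04 to 0.13. RARS1, the arginine enzyme, was at 0.09, being -0.0005 in arrays 1 and 2 but 0.17 in arrays 3 and 4.

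Some cytosolic synthetases are held together in a large multisynthetase complex, and others act free of it. Of the 7 measured enzymes of the complex (EPRS1, IARS1, KARS1, LARS1, MARS1, QARS1 and RARS1) 0 passed limma's test in either direction, with 2 lower and 0 higher at an unadjusted p under 0.05, beside 21.0% of all genes called. IARS1 and LARS1 were exceptions on other readings. For IARS1 3 of its 4 probe sets fell, and it fell with averaged probe sets (-0.14, adjusted p = 0.015) and with limma's intensity trend (adjusted p = 0.037). LARS1 fell among genes above the median signal (adjusted p = 0.0224), with the intensity trend (adjusted p = 0.0206) and with array weights (adjusted p = 0.0494). With averaged probe sets LARS1 did not pass (-0.03, adjusted p = 0.727). All 6 cytosolic genes that passed were among the 12 free enzymes, 4 higher and 2 lower. AIMP1, a scaffold protein of the complex, was at 0.12 (adjusted p = 0.0769) with all podofilox arrays above all control arrays, and the scaffolds AIMP2 and EEF1E1 were not analysed here. The difference between bound and free enzymes was not tested.

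Synthetases fall into class I and class II, which have unrelated catalytic folds. Of 10 cytosolic class I genes 2 rose and 1 fell, and of 9 class II genes 2 rose and 1 fell. EPRS1, which joins the glutamate and proline enzymes, was counted once, in class I. In mitochondria 5 of 9 class I genes and 3 of 7 class II genes fell. Over all genes 8.55% rose and 12.5% fell, and among genes above the median signal 12.4% rose and 21.5% fell. The difference between the classes was not tested.

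A set of 12 cytosolic synthetases is commonly listed among ATF4 targets: AARS1, CARS1, EPRS1, GARS1, IARS1, LARS1, MARS1, NARS1, SARS1, TARS1, WARS1 and YARS1. Of these 4 rose and 0 fell by limma (5 higher and 2 lower at an unadjusted p under 0.05), with a median difference of 0.07. Of the other 7 cytosolic genes 0 rose and 2 fell (0 higher and 3 lower at an unadjusted p under 0.05), with a median of -0.12. These counts stand beside 8.55% risen and 12.5% fallen over all genes, and 12.4% and 21.5% among genes above the median signal. Set against the mean of the control arrays, the median gene of the 12 stood at 0.08, 0.09, 0.02 and 0.05 on podofilox arrays 1 to 4, and that of the other 7 at -0.09, -0.11, -0.08 and -0.14. The first set was written down with results of these data known and lends its direction no support.

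**Figure D2:**
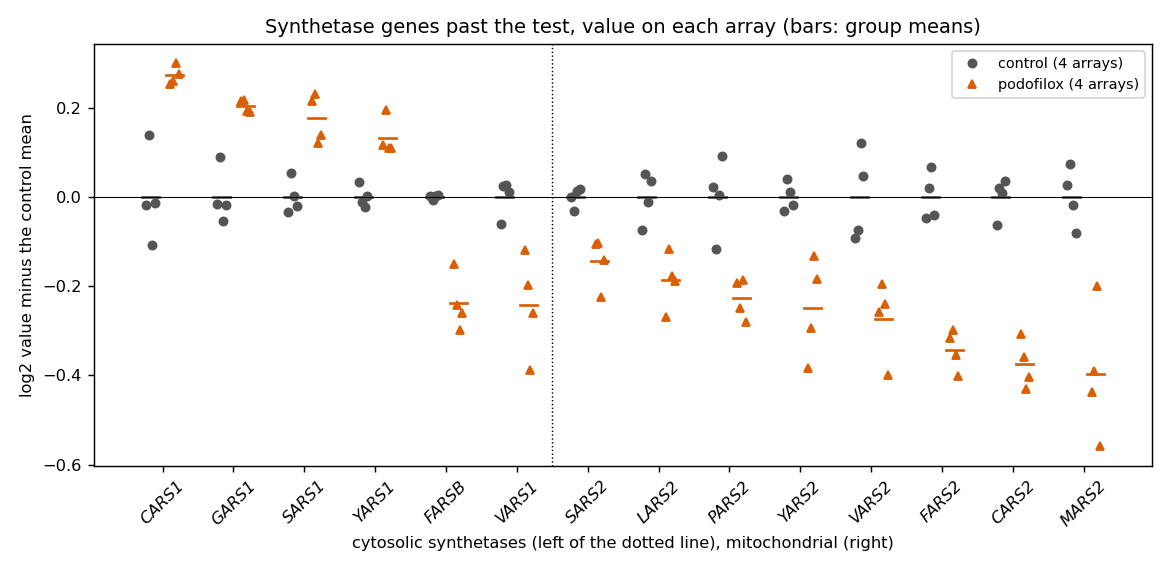
Value on each array minus the gene's control mean (log2) for the 14 synthetase genes past the test; circles are the 4 control arrays, triangles the 4 podofilox arrays and short bars their means, with cytosolic genes left of the dotted line. In each of the 14 genes the podofilox arrays all lie on 1 side of the control arrays, above for CARS1, GARS1, SARS1 and YARS1 and below for the other 10.

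Among the mitochondrial enzymes, MARS2, the methionine enzyme, had the largest difference on the brightest probe set of each gene; with averaged probe sets CARS2 (-0.49) exceeded MARS2 (-0.36). It read 7.64, 7.68, 7.59 and 7.53 in control cells and 7.17, 7.22, 7.41 and 7.05 with podofilox. All podofilox arrays were lower, array 3 the least so. The difference was -0.40 (SE 0.07, adjusted p = 0.00376, n = 4 per group), and its 2 other probe sets fell by 0.32 and 0.36.

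CARS2, the mitochondrial cysteine enzyme, had the smallest p of all members. Its values were 8.85, 8.93, 8.92 and 8.94 against 8.60, 8.55, 8.48 and 8.50, and the groups were well apart. It fell by 0.38 (SE 0.04, adjusted p = 0.000369), and 2 further probe sets fell by 0.44 and 0.66. FARS2, which loads phenylalanine as a single chain, read 8.28, 8.35, 8.39 and 8.29 against 8.01, 8.03, 7.97 and 7.93. It fell by 0.34 (SE 0.05, adjusted p = 0.000628) and by 0.29 on its other probe set, again without overlap of the arrays.

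YARS2, the tyrosine enzyme, read 8.56, 8.63, 8.60 and 8.57 in control cells and 8.21, 8.30, 8.46 and 8.40 with podofilox. The difference was -0.25 (SE 0.06, adjusted p = 0.0127), larger in arrays 1 and 2 (-0.34) than in arrays 3 and 4 (-0.15). PARS2, the proline enzyme, read 7.22, 7.08, 7.21 and 7.29 against 7.01, 6.95, 7.01 and 6.92, and it fell by 0.23 (SE 0.05, adjusted p = 0.0118). Both genes had all podofilox arrays below the controls, and the second PARS2 probe set was at -0.16 and did not pass over all probe sets (adjusted p = 0.0591).

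VARS2, the valine enzyme, read 7.78, 7.80, 7.99 and 7.92 against 7.61, 7.68, 7.63 and 7.47, a fall of 0.27 (SE 0.06, adjusted p = 0.0121). The set behind that value has the suffix _x_at, given where probes may cross-hybridise. Its 3 other probe sets were at -0.12 to -0.09 and did not pass, and with every _x_at and _s_at set dropped VARS2 no longer passed (-0.10, adjusted p = 0.163). Arrays 1 and 2 gave -0.14 and arrays 3 and 4 gave -0.40.

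LARS2, the leucine enzyme, and SARS2, the serine enzyme, fell least. LARS2 read 8.60, 8.73, 8.67 and 8.71 against 8.41, 8.56, 8.50 and 8.49, a difference of -0.19 (SE 0.05, adjusted p = 0.0209). Its groups did not overlap, but the call ended without control replicate 2 or 4 or podofilox replicate 1 or 4 (adjusted p up to 0.0684). SARS2 read 8.67, 8.64, 8.68 and 8.68 against 8.56, 8.56, 8.44 and 8.53, a difference of -0.14 (SE 0.04, adjusted p = 0.0392). Its call was kept on leaving out control replicate 2 or podofilox replicate 1 and ended without any 1 of the other 6 arrays (adjusted p up to 0.108). Averaging its 2 probe sets (-0.08, adjusted p = 0.246) or normalizing quantiles again (-0.10, adjusted p = 0.0978) ended the call too.

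The remaining 8 mitochondrial genes did not pass the test. AARS2, the alanine enzyme, missed it narrowly (-0.16, adjusted p = 0.0517), with values of 7.58, 7.73, 7.69 and 7.70 against 7.49, 7.59, 7.44 and 7.55. A single pair of arrays, control 1 and podofilox 2, made its groups overlap. It passed without control replicate 1 (adjusted p = 0.0366) or podofilox replicate 2 (adjusted p = 0.0499). RARS2 (-0.11), IARS2 (-0.09) and HARS2 (-0.08), for arginine, isoleucine and histidine, had all podofilox arrays below all control arrays yet adjusted p of 0.142, 0.176 and 0.193. In all, 11 of 16 mitochondrial genes had non-overlapping arrays with podofilox below, beside 15.6% of all genes and 27.4% of genes above the median signal.

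NARS2 (0.01), EARS2 (0.01) and TARS2 (0.04), for asparagine, glutamate and threonine, were the 3 mitochondrial genes not below 0. EARS2 depended on the probe set: the brightest, of the _s_at kind, was at 0.01, whereas the 3 others were at -0.31, -0.15 and -0.28, the first and last of them past the test over all probe sets. Averaged over its 4 probe sets EARS2 fell (-0.18, adjusted p = 0.0149). WARS2, the tryptophan enzyme, was at -0.12 (adjusted p = 0.286) and differed between the array pairs, being 0.06 in arrays 1 and 2 but -0.31 in arrays 3 and 4.

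**Figure D3:**
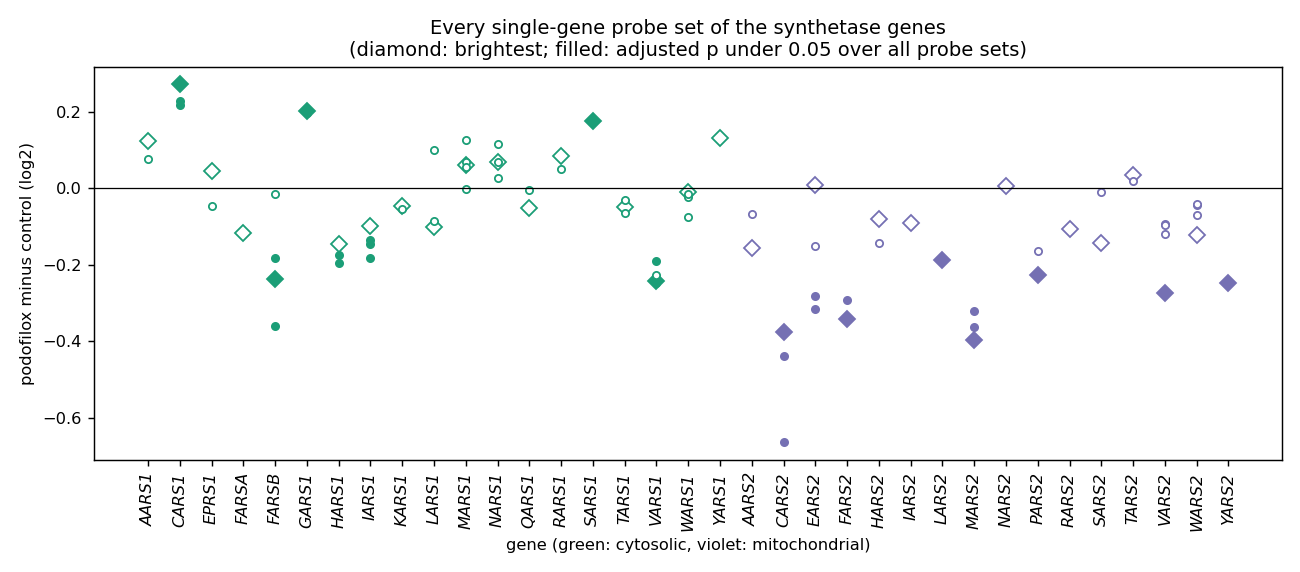
Difference between podofilox and control (log2) for each of the 88 single-gene probe sets of the 35 genes; diamonds are the brightest probe set of a gene, circles the others, and filled symbols passed an adjusted p under 0.05 over all probe sets (green cytosolic, violet mitochondrial). Of the 35 mitochondrial probe sets 14 are filled below 0 and 0 above it, and of the 53 cytosolic ones 12 are filled below and 6 above.

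Read over probe sets instead of genes, 14 of the 35 mitochondrial probe sets fell and 0 rose by limma, and 12 of the 53 cytosolic probe sets fell (22.6%) and 6 rose (11.3%). Over all 44988 single-gene probe sets 10.2% fell and 7.83% rose. Probe sets of 1 gene share their transcript and are not independent. Several probe sets were present for 27 of the 35 genes, and for 6 genes the brightest was an _x_at or _s_at one.

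For 16 amino acids the array carried a cytosolic and a mitochondrial enzyme, which gave 17 pairs because FARSA and FARSB both face FARS2 (EPRS1 is set against both EARS2 and PARS2). In 14 of the 17 pairs the mitochondrial gene had the lower difference. The cysteine pair lay furthest apart, with CARS1 at 0.27 and CARS2 at -0.38. It was followed by the methionine pair (MARS1 0.06, MARS2 -0.40), the tyrosine pair (YARS1 0.13, YARS2 -0.25) and the serine pair (SARS1 0.18, SARS2 -0.14). In cysteine, tyrosine and serine the cytosolic gene rose and the mitochondrial gene fell, each past the test. The valine pair moved down together, with -0.24 for VARS1 and -0.27 for VARS2, as did FARSB (-0.24) and FARS2 (-0.34). Histidine, isoleucine and threonine were the 3 pairs in which the mitochondrial gene was not the lower one. The distances within pairs were not tested.

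**Figure D4:**
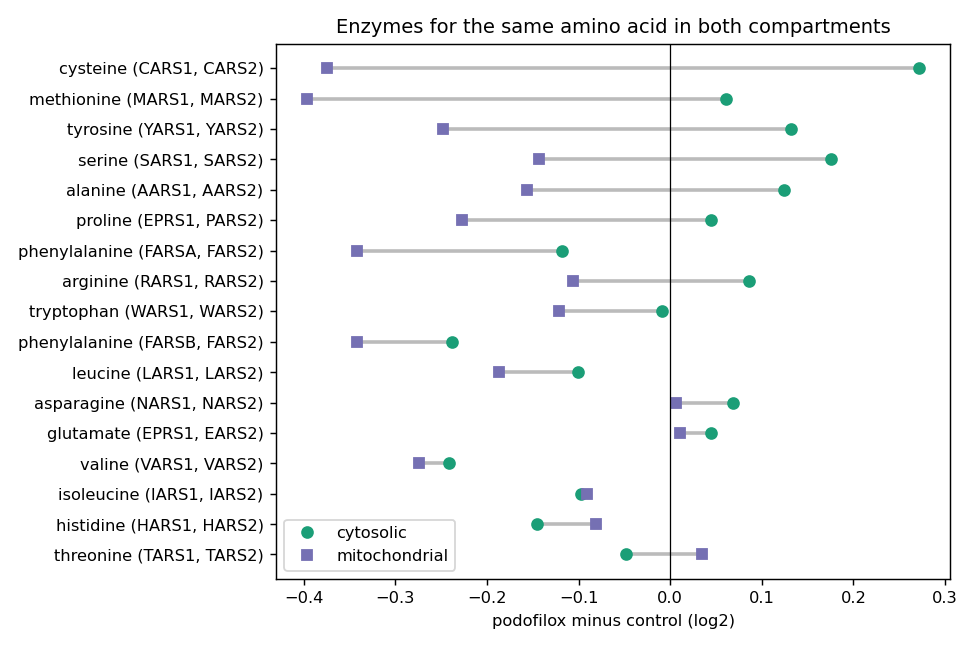
Difference between podofilox and control (log2) of the cytosolic (circle) and mitochondrial (square) enzyme for each amino acid, ordered by the distance between them. In 14 of the 17 pairs the square lies left of the circle, furthest in cysteine, where CARS1 is at 0.27 and CARS2 at -0.38.

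Genes that work beside the synthetases were read from lists written with results of these data known. Of 12 measured mitochondrial translation and tRNA factors 5 fell and 0 rose by limma (6 lower and 0 higher at an unadjusted p under 0.05), beside 12.5% fallen and 8.55% risen over all genes and 21.5% fallen among genes above the median signal. MRRF, which recycles mitochondrial ribosomes, read 7.71, 7.65, 7.85 and 7.83 against 7.42, 7.38, 7.34 and 7.25, and fell by 0.41 (SE 0.06, adjusted p = 0.000945). TUFM, the elongation factor that brings charged tRNA to the mitochondrial ribosome, fell by 0.16, and TSFM, its exchange factor, by 0.23. GATB, a subunit of the amidase that makes glutaminyl-tRNA in mitochondria from the product of EARS2, fell by 0.22. The other subunits of this amidase, QRSL1 (0.02, adjusted p = 0.81) and GATC (0.09, adjusted p = 0.586), did not pass. In the cytosol 1 of 6 elongation factors fell: EEF1B2, which recharges EEF1A with GTP, by 0.19, while EEF2 (-0.05), EEF1D (-0.04) and EEF1G (-0.02) did not pass.

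Of 18 genes of tRNA processing and export 8 fell and 0 rose by limma (12 lower and 0 higher at an unadjusted p under 0.05), and 10 did not pass. The shares fallen were 12.5% over all genes and 21.5% among genes above the median signal, where 16 of these 18 genes lay. RPP40 and RPP25, protein subunits of the RNase P and MRP family, which trims the front end of tRNA precursors, fell by 0.50 (SE 0.04, adjusted p = 5.46e-05) and 0.44 (SE 0.05). TRNT1, which adds the CCA end that a synthetase charges, fell by 0.26. ELAC1, a tRNA processing nuclease, fell by 0.64 at a low signal (5.25 in control cells). Of 18 genes of RNA polymerase III and its factors, which transcribe tRNA, 8 fell, 9 did not pass and 1 rose (POLR3D, 0.13, adjusted p = 0.0334, named after its value was seen), among the falls the polymerase subunits POLR3B (-0.28) and POLR3C (-0.26), GTF3C2 (-0.25) and GTF3C6 (-0.25). DTD1 and DTD2, which strip wrongly charged tRNA, fell by 0.21 (adjusted p = 0.00475) and 0.23 (adjusted p = 0.0023). PSTK, which acts on the way to selenocysteine-tRNA, fell by 0.16 close to the threshold (adjusted p = 0.0491). Its difference was -0.10 in arrays 1 and 2 and -0.21 in arrays 3 and 4. SEPSECS, the next enzyme of that way, was at 0.18 on its brightest probe set and did not pass (adjusted p = 0.0828), but it fell when its 3 probe sets were averaged (-0.19, adjusted p = 0.0281) or when _x_at and _s_at sets were dropped (-0.28, adjusted p = 0.0104). XPOT, which exports tRNA from the nucleus, was at 0.26 (SE 0.13, adjusted p = 0.194), being -0.07 in arrays 1 and 2 but 0.59 in arrays 3 and 4.

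Of 29 measured ATF4 targets of amino acid supply and stress 9 rose, 1 fell and 19 did not pass, with a median difference of 0.10, beside 8.55% of all genes risen and 12.5% fallen. DDIT4, a stress-induced inhibitor of mTORC1 signalling, rose by 0.92 (SE 0.05, adjusted p = 7.44e-06). ASNS, asparagine synthetase, which makes an amino acid and not a charged tRNA, read 10.30, 10.32, 10.21 and 10.28 against 10.72, 10.77, 10.88 and 10.80, and rose by 0.52 (SE 0.05, adjusted p = 0.000117). SLC7A11, the cystine importer, rose by 0.39 and ATF3 by 0.55. These values stand beside those of CARS1 (0.27) and GARS1 (0.20), the synthetases that rose most. In the GCN2 and eIF2 list of 18 genes 3 rose, 5 fell and 10 did not pass. DDIT3, the transcription factor CHOP, rose by 0.78 and PPP1R15B, which helps to dephosphorylate eIF2, by 0.34, while EIF2B1, a subunit of the exchange factor of eIF2, fell by 0.28 and the transcription factor ATF5 by 0.56. The mRNA of ATF4 itself was at 0.08 (SE 0.04, adjusted p = 0.213) on its only probe set, of the _x_at kind. All podofilox arrays of ATF4 lay above all control arrays, though it did not pass. The activity of ATF4, which depends on translation, was not measured here. MYC, another known regulator of growth genes, was at -0.10 (adjusted p = 0.246).

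**Figure D5:**
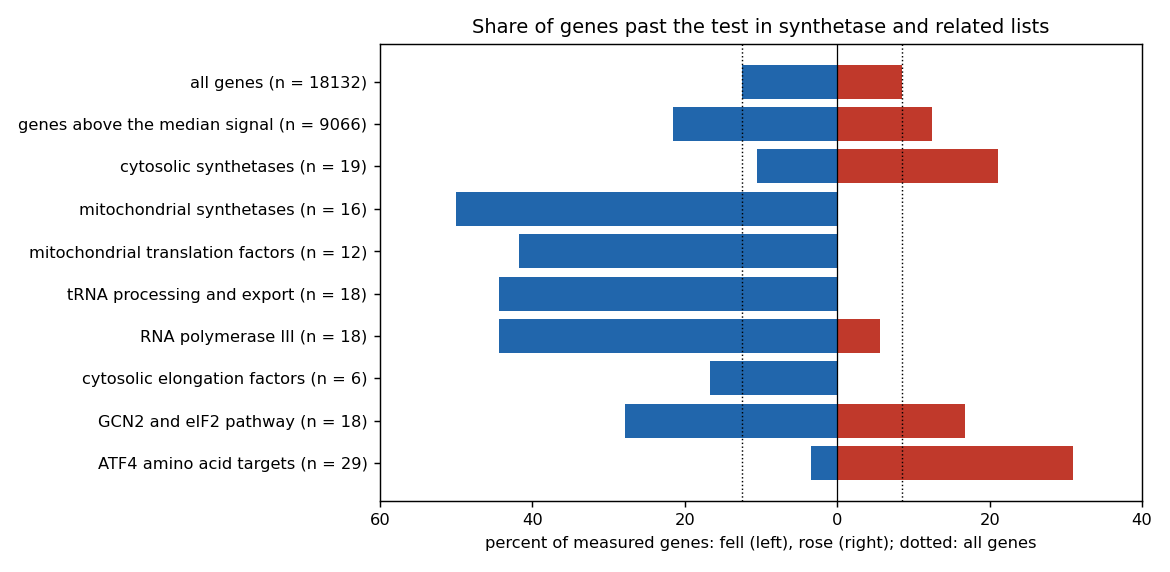
Percent of measured genes that fell (blue, to the left) or rose (red, to the right) by limma in the synthetase lists and in lists of neighbouring pathways, with all genes and all genes above the median signal on top; dotted lines repeat the values of all genes, 12.5% fallen and 8.55% risen. The mitochondrial synthetases have 8 of 16 fallen and 0 risen, and the ATF4 targets 9 of 29 risen and 1 fallen.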

How the data were processed

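Each of the 8 arrays gave 1 log2 expression value per probe set, which the authors made with RMA and deposited. RMA is named in the submitters' processing notes. RMA normalizes by quantiles, so a shift shared by all genes would not show. Of 49395 probe sets, the platform annotation ties 44988 to a single gene, and the rest stayed out. No detection calls were used, and precision is limited by there being 4 arrays a group.

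The brightest probe set by mean log2 value stood for each of 18132 genes. Groups came from the sample titles. The test was limma's moderated test (version 3.58.1, under R 4.3.3), with group as the only term and no filter, tested on simulated data, and p-values were adjusted over all genes. Every member is reported, and other lists by counts and up to 4 genes of smallest p each, besides ATF4, DDIT3, ASNS, XPOT and MYC. POLR3D, QRSL1, GATC, CLDN4, CD68, CDH5 and the other markers were named outside that rule. The members and lists were chosen with earlier results of these data known. Alternatives tried were leaving out dim genes, centring arrays on their medians, normalizing quantiles again, limma's trend with robust variances, weights per array, a replicate block, a term for array pairs or each pair alone, averaged probe sets, dropping _x_at and _s_at sets, and omitting each array. Protein lengths and identities of the enzyme pairs were not analysed here. Figures come from matplotlib 3.10.9 (Python 3.11.15).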

Additional observations from a re-analysis of the deposited data

Results flagged for a closer look

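In groups of 4 arrays, a value was singled out where its gap to the nearest other array exceeded Dixon's 95% critical value as a share of the group's range. Of 134 groups of named genes 7 held such a value, and chance singles out about 1 group in 20. Among the synthetases, KARS1 was at 11.47 on podofilox array 1, with the others at 11.52 to 11.53. TARS1 was at 11.53 on control array 2, with the others at 11.72 to 11.74, and at 11.52 on podofilox array 3, with the others at 11.66 to 11.69. VARS1 was at 8.98 on control array 1, with the others at 9.05 to 9.06, and YARS1 at 10.19 on podofilox array 2, with the others at 10.11. Outside the synthetases, GTF3C6 was at 9.42 on podofilox array 3 (others 9.19 to 9.23) and ATF5 at 5.70 on podofilox array 1 (others 6.13 to 6.21).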

How the results depend on the processing

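Over 19 alternatives, 663 values of the 35 synthetase genes were recomputed, of which 596 kept their side of the threshold with no change of sign in a call, 46 lost the call, 20 gained it and 1 reversed with a call, EARS2 with the mean of its probe sets (-0.18). Among the other named genes SEPSECS reversed, to -0.19 with the mean of probe sets and to -0.28 without _x_at and _s_at probe sets. The cytosolic risen genes (4) were 2 with the replicate block, 0 with arrays 1 and 2 alone, 1 with arrays 3 and 4 alone and 2 to 4 on leaving out 1 array. The cytosolic fallen genes (2) were 4 among genes above the median signal, with array weights and with the mean of probe sets, 5 with the intensity trend, 1 with the replicate block and 0 with arrays 1 and 2 alone. The mitochondrial fallen genes (8) were 2 with arrays 1 and 2 alone and 5 with arrays 3 and 4 alone, and 6 to 8 on leaving out 1 array; the mitochondrial median (-0.15) was -0.11 after a second quantile normalization and -0.20 with arrays 3 and 4 alone. Over all genes, 1550 risen became 2406 with array weights, 468 with arrays 1 and 2 alone and 905 with arrays 3 and 4 alone, and 2260 fallen became 542 and 1395 with those pairs. The replicate block ended the calls of SARS1, YARS1, VARS1 and SARS2 and of no other synthetase gene. Arrays of the same number deviated from their group means with correlations of -0.131, 0.089, -0.238 and 0.061, and not every array correlated best with its own number. These values rest on 4 pairs of arrays, too few to say whether arrays of the same number belonged together. Dim probe sets and 4 arrays per group limit what small differences can show.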
